A study of Saccharomyces cerevisiae with 6 samples.

Results

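The 10 genes described here encode the enzymes that make homocysteine, pass its sulfur to and from cysteine and turn methionine into S-adenosylmethionine (AdoMet): MET2, MET17, MET13, SAM1, SAM2, SAH1, CYS3, CYS4, STR2 and STR3. They were taken by name from 6002 protein-coding genes on the nuclear chromosomes of budding yeast, and each was placed by its midpoint in 1 of 1216 nuclear bins of 10 kb. The 10 genes fell into 10 different bins on 7 chromosomes. Contacts of these bins were read from 2 Hi-C maps, replicates 1 and 2 of a single group of cells grown in synthetic medium lacking methionine. Hi-C joins DNA ends that lie close together in fixed nuclei and counts the joined pairs.

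The cells were haploid and MATa. They carried bar1, tor1-1 and fpr::NAT, the markers ade2-1, can1-100, ura3-1 and trp1-1, and mutant alleles of LEU2 and HIS3. A cassette at HIS3 expressed tetR-mCherry and LacI-GFP and a cassette at ADE2 expressed LacI and tetR, each from REV1 promoters. Chromosome XV held LacO repeats at 497047 and TetO repeats at 834487, so proteins that bind both arrays were present in the strain. No map from cells with methionine was analysed here, and nothing below is a comparison of conditions. Replicates are described as biological in the study, but the labels do not say that they came from separate cultures.

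Cells without methionine take sulfide onto O-acetylhomoserine to make homocysteine, which a methyl group from folate then turns into methionine. AdoMet made from methionine donates its methyl group, and the remaining S-adenosylhomocysteine is split to give homocysteine back. Homocysteine and cysteine are interconverted through cystathionine in both directions. The activator Met4 drives many of these genes and is brought to their promoters by the DNA-binding proteins Cbf1, Met31 and Met32.

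Binding letters of these proteins are a feature that the choice of genes did not use, and all 10 promoters held at least 1 of the motifs searched. In the 500 bases before the start codon, CACGTG, the letters Cbf1 is known to bind, were found on either strand in 6 of the 10 genes and in 6.23% of 6000 promoters of that length. CTGTGG or its reverse complement CCACAG, taken here for Met31 and Met32, was found in 7 of the 10 and in 13.2% of all. Both were found in MET17, SAM2 and CYS4, and in 0.917% of all promoters. Where both were found they did not overlap. A match is a description of letters, not of binding. The stretches below are those of the 3 genes with both motifs and of SAM1, whose bin behaved differently from that of its paralog SAM2. Each is read 5′ to 3′ on the strand of its gene in the R64 reference (the sacCer3 build), with the motif in capitals.
MET17, first motif base 300 bases before the start codon, chrXII:732230-732259, plus strand: aatggcaaatggCACGTGaagctgtcgata
MET17, 274 bases before, chrXII:732256-732285, plus strand: gatattggggaaCTGTGGtggttggcaaat
SAM2, 323 bases before, chrIV:1454770-1454799, minus strand: aatatttctaccCACGTGactataattgag
SAM2, 297 bases before, chrIV:1454744-1454773, minus strand: tgagcttgaaaaCTGTGGcgtttttccacc
CYS4, 405 bases before, chrVII:798126-798155, plus strand: aaatggtaatggCACGTGatagtagtggct
CYS4, 207 bases before, chrVII:798324-798353, plus strand: tgccatcttcctCCACAGttttgcaccgaa
SAM1, 274 bases before, chrXII:514976-515005, plus strand: ttcacaggaaaaCTGTGGtggcgcccttgc
In MET17 and SAM2 the Met31/Met32 letters follow CACGTG at the same spacing, since their first bases lie 26 bases further on in both genes. MET2, SAH1 and CYS3 held CACGTG alone, and MET13, SAM1, STR2 and STR3 held only the Met31/Met32 letters, MET13 at 2 places.

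The signal in the deposited maps had been balanced, so that each bin had been divided by a factor of its own. Whole contacts were recovered from it, 3751691 in replicate 1 and 3511728 in replicate 2 over the nuclear genome. Of these, 1004871 and 931315 joined different chromosomes. A kept bin had values with at least a share of 0.5 of its partners on other chromosomes, and 1080 bins were kept, among them all 10 member bins. A kept pair of bins on different chromosomes had on average 1.64 and 1.53 contacts in the 2 maps with a median of 1. Each value is contacts observed over contacts expected (O/E), where the expectation for a pair between chromosomes comes from all pairs at like distances from their centromeres or ends, and for a pair within a chromosome from all pairs at the same distance.

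The members lie at very different distances from their centromeres. CYS3 (cystathionine gamma-lyase, which releases cysteine from cystathionine, chrI:130799-131983) lies 20.1 kb from its centromere on the left arm. SAH1 (S-adenosylhomocysteine hydrolase, chrV:235770-237119) lies 84.4 kb away on the right arm. MET13 (methylenetetrahydrofolate reductase, which supplies the methyl group, chrVII:272520-274322, left arm), STR2 (cystathionine gamma-synthase, chrX:665218-667137, right arm), CYS4 (cystathionine beta-synthase, chrVII:798543-800066, right arm) and STR3 (cystathionine beta-lyase, chrVII:154615-156012, left arm) lie 224, 229.8, 302 and 342 kb away. SAM1 (an AdoMet synthetase, chrXII:515262-516410, right arm) lies 365 kb away, MET2 (homoserine O-acetyltransferase, chrXIV:117349-118809, left arm) 511 kb, MET17 (O-acetylhomoserine sulfhydrylase, which makes homocysteine, chrXII:732542-733876, right arm) 582 kb and SAM2 (the other AdoMet synthetase, chrIV:1453310-1454464, right arm) 1004 kb. None lies within 30 kb of a chromosome end. Each is annotated as 1 protein-coding gene, and each bin holds 4 to 7 annotated genes, so a value belongs to the bin and not to the gene alone.

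CYS3 and SAH1, the members nearest to their centromeres, put the highest share of their contacts on other chromosomes, and the 2 members on chromosome XII the lowest. For CYS3 the share was 49.4% in replicate 1 and 46.9% in replicate 2, with 3591 and 3431 contacts behind them. For SAH1 it was 45.1% and 44.8%. MET17 had 28.9% and 30.6% and SAM1 31.0% and 32.3%, both below the median of 38.3% over all kept bins in both maps. MET17 stood at the 5.19th percentile of all kept bins and CYS3 at the 91.3rd. In order of the mean over the 2 maps, the shares were 29.8% ± 1.22 (SD, n = 2) for MET17, 31.6% ± 0.924 for SAM1, 36.4% ± 0.165 for SAM2, 37.2% ± 1.16 for STR3, 38.5% ± 0.740 for MET2, 38.5% ± 1.25 for STR2, 41.6% ± 0.278 for MET13, 42.1% ± 0.189 for CYS4, 44.9% ± 0.220 for SAH1 and 48.2% ± 1.71 for CYS3. The exact binomial intervals (95%) of neighbours in this order overlapped in at least 1 map for every pair of neighbours but SAM1 with SAM2. Over all kept bins the share fell with distance, from a median of 54.9% within 20 kb of the centromere to 33.9% beyond 500 kb. Classes use the midpoint of the bin, which for CYS3 lies 16.5 kb from its centromere, in the outer part of the class within 20 kb. CYS3 ranked low in that class, at the 21.7th percentile of 23 kept bins, and the part of its position within the class was not tested. CYS4, MET13 and MET2 ranked high in theirs, at the 86.7th, 85th and 82.8th.

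**Figure D1:**
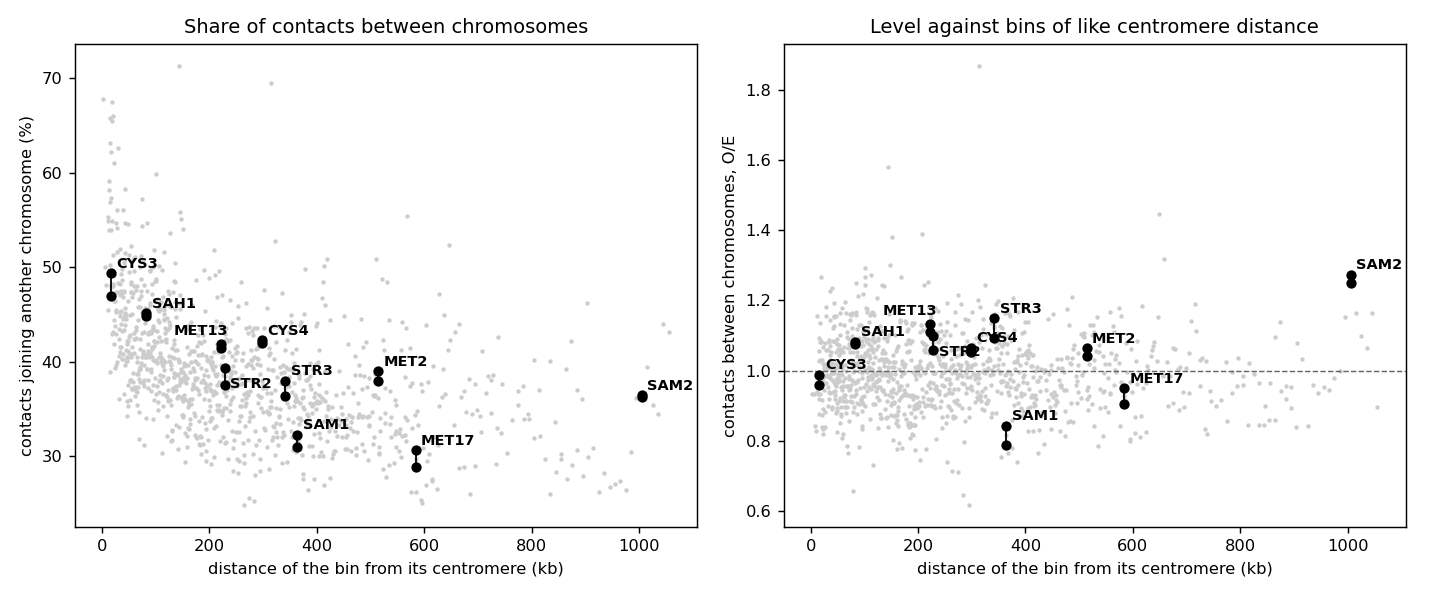
Each of the 1080 kept bins is a grey point, and the member bins are shown in black with 1 point per map joined by a line, against the distance of the bin from its centromere in kb. The left panel gives the percent of contacts that join another chromosome and the right panel the O/E against pairs at like distances; SAM1 lies near the lower edge of the cloud and SAM2 near its upper edge.

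Once centromere distance was allowed for, the paralogs SAM1 and SAM2 lay far apart. The summed contacts of the SAM1 bin with all other chromosomes had O/E of 0.788 and 0.843, mean 0.815 ± 0.0385 (SD, n = 2), the 3.06th percentile of kept bins. Those of the SAM2 bin had O/E of 1.25 and 1.27, mean 1.26 ± 0.0166, the 98.8th percentile. SAM2 was outside the central 95% of all kept bins (0.806 to 1.21) and SAM1 just inside it. The other members lay between 0.927 for MET17 and 1.12 for MET13 and STR3. SAM1 was like the kept bins within 50 kb of it, whose median was 0.827. SAM2 exceeded all 10 of its neighbours, which ran from 0.895 to 1.16, and STR3 at 1.12 exceeded all 10 of its own, which ran from 0.832 to 1.03.

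The SAM2 bin also holds few sites for DpnII, the enzyme that cut the chromatin. It has 19, against a median of 30 over kept bins, and the 34 kept bins with 19 or fewer had a median level of 1.06 between chromosomes with SAM2 the highest of them. MET2 is the only member with fewer sites, 15, and had a level of 1.05. Over the 1080 kept bins the number of sites and the level had a Spearman rho of -0.196. The bins share libraries, and the part of site number in the SAM2 value was not tested. In percent of its own contacts, a measure that no balancing touches, SAM2 was at the 66.9th percentile of its distance class.

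Contacts with centromeres of other chromosomes were highest for CYS3 and SAH1, the members nearest to their own. With the kept bins within 20 kb of other centromeres, and against the mean between chromosomes, CYS3 had O/E of 6.47 and 6.30, from 498 contacts. SAH1 had 1.13 and 1.34 from 86 contacts, and its interval of 0.986 to 1.52 included 1. The other members had mean O/E of 0.125 (SAM1) to 0.508 (STR2), from 7 to 40 contacts each, and the median of all kept bins was 0.395. Among these the order did not follow distance, since SAM2, the farthest out, had 0.195 and SAM1 the lowest value. CYS3 nonetheless ranked low among the 23 kept bins of its class, in whose outer part it lies, at the 8.70th percentile. Leaving no bin out lowered the median over members from 0.296 to 0.230.

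CYS3 and SAH1 had their highest contacts with partners near centromeres and the members farthest out with partners far out. CYS3 contacts fell at each step from the nearest distance class of partners to the farthest. SAH1 contacts peaked with partners 50 to 100 kb from their centromeres, at O/E of 1.83 and 2.14 from 795 contacts, near its own 84.4 kb. SAM2 contacts were highest with partners beyond 500 kb, at 1.75 and 1.71 from 359 contacts. SAM1 and MET17 had the lowest values of the members with partners 50 to 100 kb out, 0.221 from 96 contacts and 0.302 from 130, while with partners beyond 500 kb they reached 1.45 and 1.55. With the bins near chromosome ends SAM1 had 0.646 (interval 0.520 to 0.789), MET17 0.743 (0.609 to 0.899) and CYS3 0.806 (0.664 to 0.964), and the other 7 lay between 0.877 and 1.11. The strata are those from which expectations were drawn elsewhere in the text, so these profiles say where members lie and are given without a test.

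**Figure D2:**
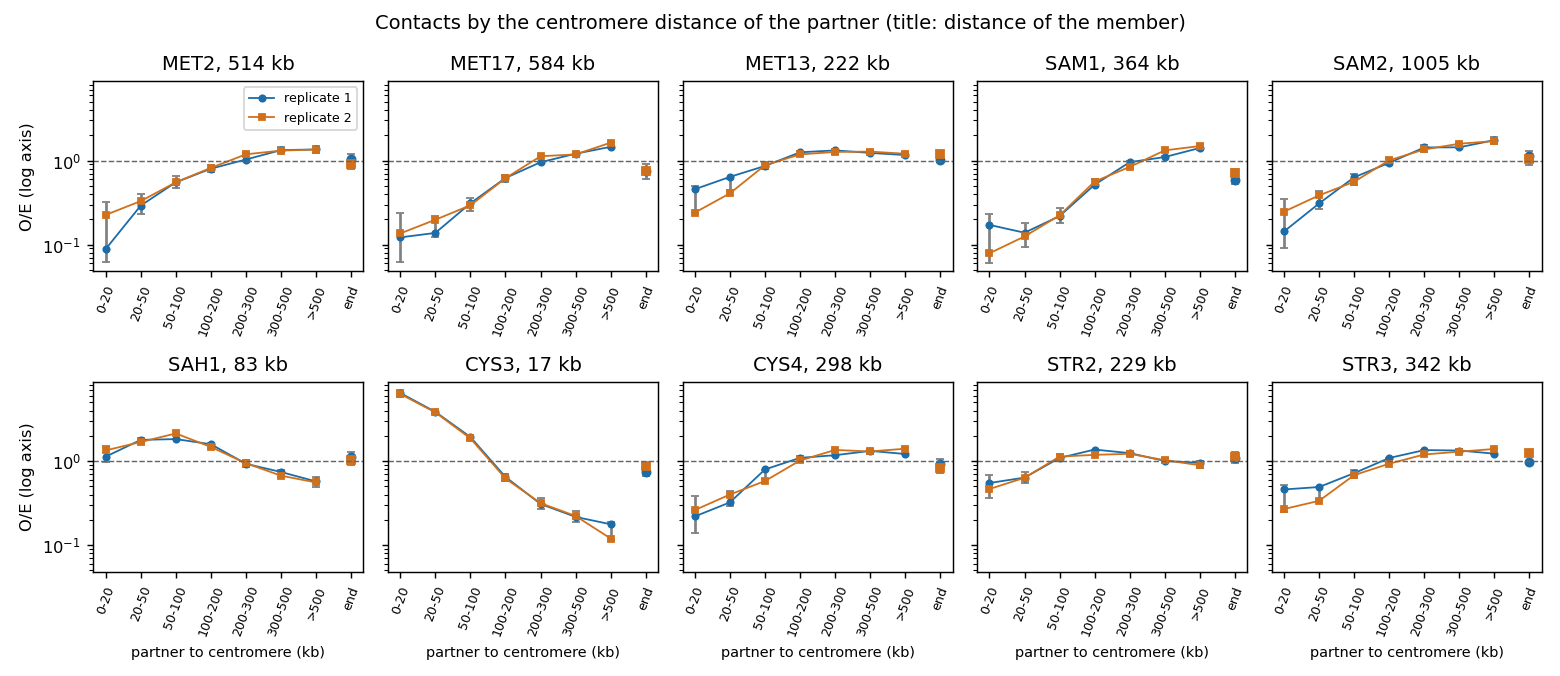
For each member (its own distance from the centromere in the panel title) the O/E against the mean between chromosomes is drawn on a log axis by the distance class of the partner bin in kb, with partners near chromosome ends at the right. Circles and squares are replicates 1 and 2, and bars are exact Poisson intervals (95%) on the contacts of both maps; CYS3 falls from 6.47 and 6.30 while SAM1 rises to 1.45.

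The low level of SAM1 was uneven over partner chromosomes. Each kept bin was compared with each other chromosome by a Poisson test on contacts against those expected from the distance classes, adjusted over all 16200 such comparisons. Of the 150 comparisons of the members, 23 were higher than expected, against 10.7% of all comparisons, and 20 were lower, against 15.1%. This high background means that counting error alone did not describe these sums, so a call here is common. SAM1 made up 10 of the 20 lower calls, of 15 chromosomes tested, and MET17 another 5.

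SAM1 was lowest with short chromosomes. With chromosome I it had 3 contacts in replicate 1 and 2 in replicate 2, where 32.5 were expected (O/E 0.153, interval 0.0499 to 0.359), the 0.0941th percentile of kept bins compared with chromosome I. With VI it had 9 and 8 contacts against 47.8 expected (0.355), and with III 10 and 12 against 55.0 (0.401). With IV its value was not called. MET17 was lowest with VI too, with 11 and 8 contacts against 39.0 (0.485), and was also low with III, IX, X and II. Among kept bins compared with the same chromosome, MET17 was at the 16.6th percentile with III and the 8.41th with VI. With IX, X and II it was at the 3.74th, 6.61th and 5.88th. SAM1 and MET17 lie on the same arm, beyond the ribosomal DNA, so their rows share a position and are not independent.

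SAM2 made 6 of the 23 higher calls. It was highest with chromosome VII, at 172 and 158 contacts against 218 expected (O/E 1.48 and 1.55), with V at 71 and 67 against 94.2 (1.41 and 1.53) and with II at 118 and 96 against 153 (1.44 and 1.34). MET13 made 6 higher calls too, all small, from 1.18 with XII to 1.27 with XVI, and STR3 made 5, the highest 1.30 with V. STR2 was higher with V, VIII and XIII. CYS3 was higher with VI (1.36, 101 and 97 contacts against 146) and with XII, and lower with IV (0.785) and VII (0.839). The CYS3 value with XII rested on 1 bin, described below, which held 84 of its 270 contacts. Without it, 186 contacts remained against 218 expected, an O/E of 0.854 (interval 0.736 to 0.986). CYS4 was lower with III and VI and higher with XV, SAH1 was lower with XII, and MET2 had no call. Among kept bins compared with the same chromosome, CYS4 was at the 28.6th percentile with III and the 24.3rd with VI. SAH1 was at the 24.0th with XII, so these lower values are common ones.

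**Figure D3:**
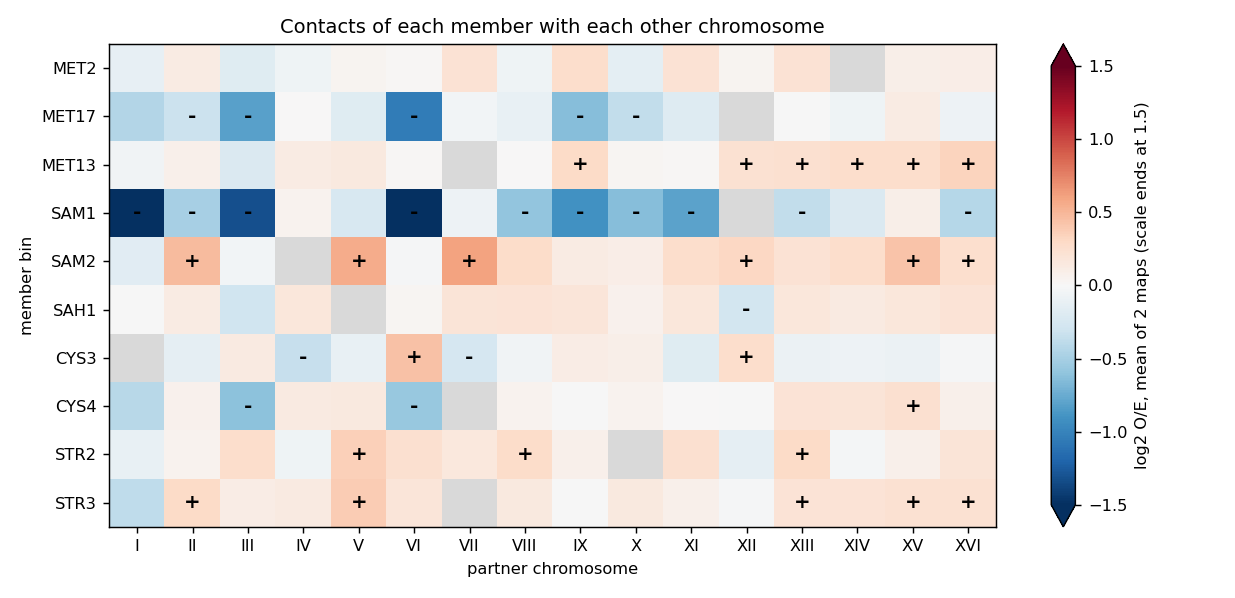
Rows are the member bins, columns the partner chromosomes, and the colour is the log2 of O/E as a mean of both maps, with red higher and blue lower and the own chromosome in grey. A plus or minus marks comparisons with an adjusted p under 0.05; the SAM1 row holds 10 minus signs and the SAM2 row 6 plus signs.

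Contacts of the members with each other across chromosomes were near the expectation. The 41 pairs of member bins on different chromosomes had 122 contacts in all where 107 were expected, a summed O/E of 1.14 (interval 0.943 to 1.36). Their mean was 1.09 in the first map and 0.975 in the second, 1.03 ± 0.0816 (SD, n = 2), and their median was 1.05. Over all 538386 kept pairs the mean was 1 and the median 0.912. After adjustment over all kept pairs no member pair passed the one-sided Poisson test, which 0.0589% of all pairs did, and 1 had an unadjusted p under 0.05, against 4.5% of all. Above 1 in both maps were 9 of the 41 pairs, or 21.95%, against 20.5% of all pairs, and 12 were below 1 in both, against 34.1%. With 0 to 9 contacts and 0.399 to 5.30 expected contacts a pair, a modest excess was not detectable at this depth.

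The highest pair joined MET17, which makes homocysteine, with MET13, which supplies the methyl group for it. It had 4 contacts in replicate 1 and 5 in replicate 2 against 4.04 expected (O/E 1.92 and 2.57, interval 1.02 to 4.23, adjusted exact Poisson p = 0.962). CYS3 with STR3 followed with 1 and 1 contacts against 0.935 (2.14, interval 0.259 to 7.73). MET2 with SAM2 had 2 and 2 contacts against 2.19 (1.83). MET13 with SAM2 had 3 and 2 against 2.83 (1.76), and SAM1 with SAM2 had 2 and 3, at an O/E of 1.69. The intervals of all 5 but the first included 1.

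SAM1 with SAM2 is the only 1 of the 45 member pairs whose bins share an identical run of 50 bases, so a read lying within such a run could be placed at the other gene. Full Hi-C reads of the study were longer than the longest such run and would reach bases that differ. The longest identical run, of 59 bases, is printed below, and it holds no GATC, the letters DpnII cuts. It lies in SAM1 at chrXII:515961-516019 on the plus strand and in SAM2 at chrIV:1453701-1453759 on the minus strand:
SAM1 and SAM2: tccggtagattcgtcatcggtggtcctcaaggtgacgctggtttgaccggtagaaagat
The 2 AdoMet synthetase bins had 5 contacts with this sequence present in both, and the part of misplaced reads in these was not tested.

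No contact in either map was seen for 6 member pairs, or 14.6% of the 41, against 11.4% of all kept pairs. MET2, MET17, SAM1 and SAM2, the 4 members farthest from their centromeres, each had none with CYS3, and SAM1 and SAM2 had none with SAH1. Expected contacts for these 6 ran from 0.399 to 1.83, under the 3 contacts that a count of 0 allows, so none of them was shown to be low.

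**Figure D4:**
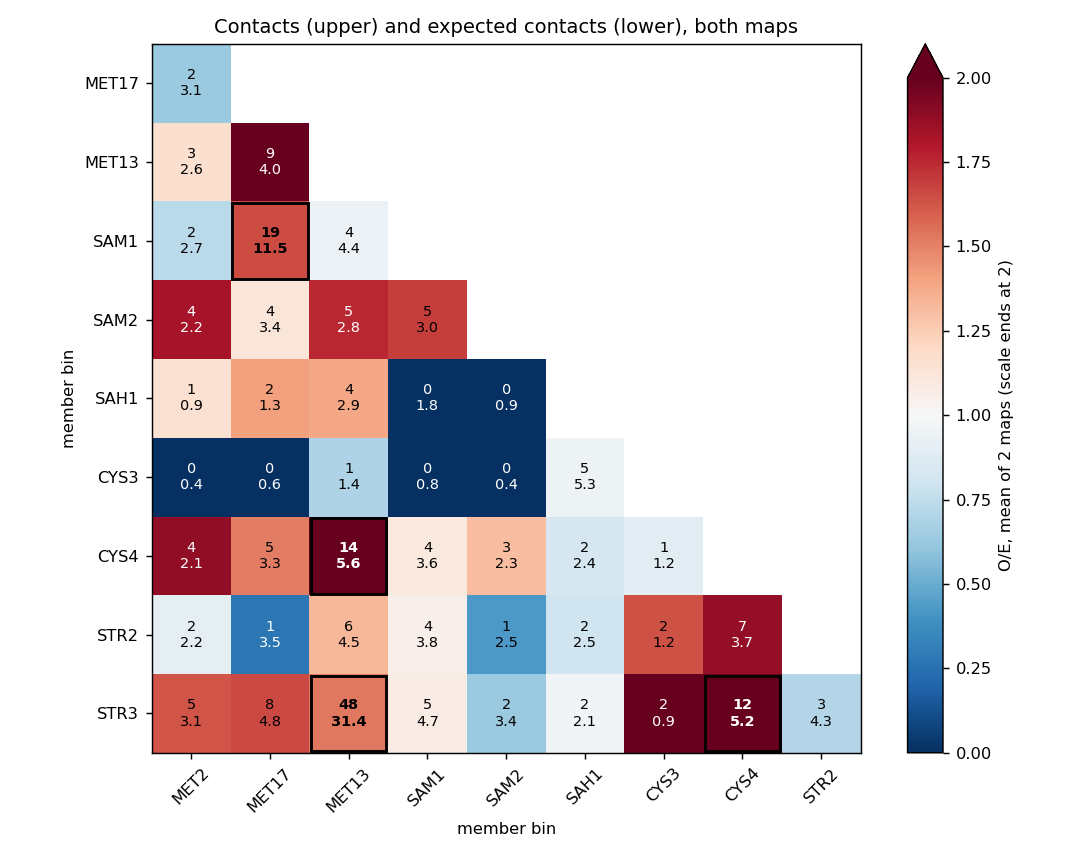
Each cell is a pair of member bins, with the contacts of both maps above the expected contacts, coloured by the mean O/E of both maps. Framed cells in bold are the 4 pairs on a single chromosome; the pair of MET17 and MET13 has 9 contacts against 4.04 expected, and SAM1 with SAH1 has 0 against 1.83.

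Windows of 3 by 3 bins around each pair hold more contacts, 2 to 59 for the member pairs. In these windows 14 of 41 pairs were above 1 in both maps, or 34.1%, against 26.4% of all windows, and the mean was 0.992. SAH1 with STR3 passed the test adjusted over all windows, which 1.38% of all windows did, with 33 contacts against 16.7 expected (O/E 1.96, adjusted exact Poisson p = 0.0279). Its central bin pair had only 1 contact in each map, against 2.06 expected over both. The windows of the 5 highest single pairs lay between 0.849 (CYS3 with STR3) and 1.40 (MET17 with MET13).

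Chromosomes VII and XII hold more than 1 member, which gives 4 pairs within a chromosome. Over both maps all 4 such pairs lay above the mean for their distance, with a mean of 1.71 in the first map and 2.28 in the second, 1.996 ± 0.406 (SD, n = 2). Above 1 in both maps were 3 of the 4, against 28.3% of all kept pairs within chromosomes. The pairs on VII share their bins and are not independent. MET13 with CYS4, across the centromere of VII and 520 kb apart, had 7 and 7 contacts against 5.60 expected over both maps (O/E 2.44 and 2.57, interval 1.37 to 4.19). It passed the test adjusted over all 44274 kept pairs within chromosomes (adjusted exact Poisson p = 0.0387), as did 5.55% of all those pairs. STR3 with CYS4, also across the centromere and 640 kb apart, had 2 and 10 contacts against 5.16 (0.786 and 3.83, adjusted exact Poisson p = 0.0964), so its excess came from replicate 2 alone. MET13 with STR3, 120 kb apart on the left arm, had 28 and 20 contacts against 31.4 (1.76 and 1.29, exact Poisson adjusted p = 0.0598). SAM1 with MET17, 220 kb apart, had 11 and 8 against 11.5 (1.85 and 1.45, exact Poisson adjusted p = 0.231). In windows of 3 by 3 bins all 4 passed, as did 25.9% of all windows. None was lower by the opposite test, which 5.68% of all kept pairs within chromosomes passed.

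Distance alone is a poor expectation for arms that face each other across a centromere. The 44 kept pairs on other chromosomes that lie across the centromere at like distance and like offset to MET13 with CYS4 had a median O/E of 1.42 and ran from 0 to 2.79, and the MET13 value of 2.50 was at their 95.5th percentile. For STR3 with CYS4 the 24 such pairs had a median of 1.48, and its 2.31 was at the 87.5th percentile. With the mean at the same distance on chromosome VII itself, MET13 with CYS4 was 2.24 and no longer passed (adjusted exact Poisson p = 0.0947), while MET13 with STR3 did (1.604, p = 0.0312). MET13 with CYS4 was not called by a negative binomial test either (adjusted p = 0.192).

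The excess of MET13 with the right arm of VII was broad. By Poisson p, the highest distant bin of MET13 on its chromosome lay directly beside the CYS4 bin on the side of the centromere (bin chrVII:780001-790000 with THI4 and RPL24B), with 10 and 9 contacts against 6.40 expected (O/E 3.05 and 2.88). By O/E the highest called bin lay nearer to the centromere, at 430 kb from MET13 (bin chrVII:700001-710000 with CLB1, CLB6, YGR109W-A and YGR109W-B), with 7 and 6 contacts against 3.86 (3.55 and 3.18). The same bin was also called for STR3, with 4 and 6 contacts against 3.20. In blocks of up to 5 bins, the contacts of MET13 with the other arm were lowest nearest the centromere, rose to 2.82 at 510 to 530 kb, where CYS4 lies, and were 1.43 at 760 to 790 kb. Those of CYS4 with the left arm were highest in the block at the far end, at 2.23, and next highest in the blocks that hold and adjoin the distance of MET13, at 2.15 and 2.11. STR3 was different: its contacts with the right arm were 1.78 in the block that holds the distance of CYS4, and highest at 760 to 800 kb, at 2.93.

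**Figure D5:**
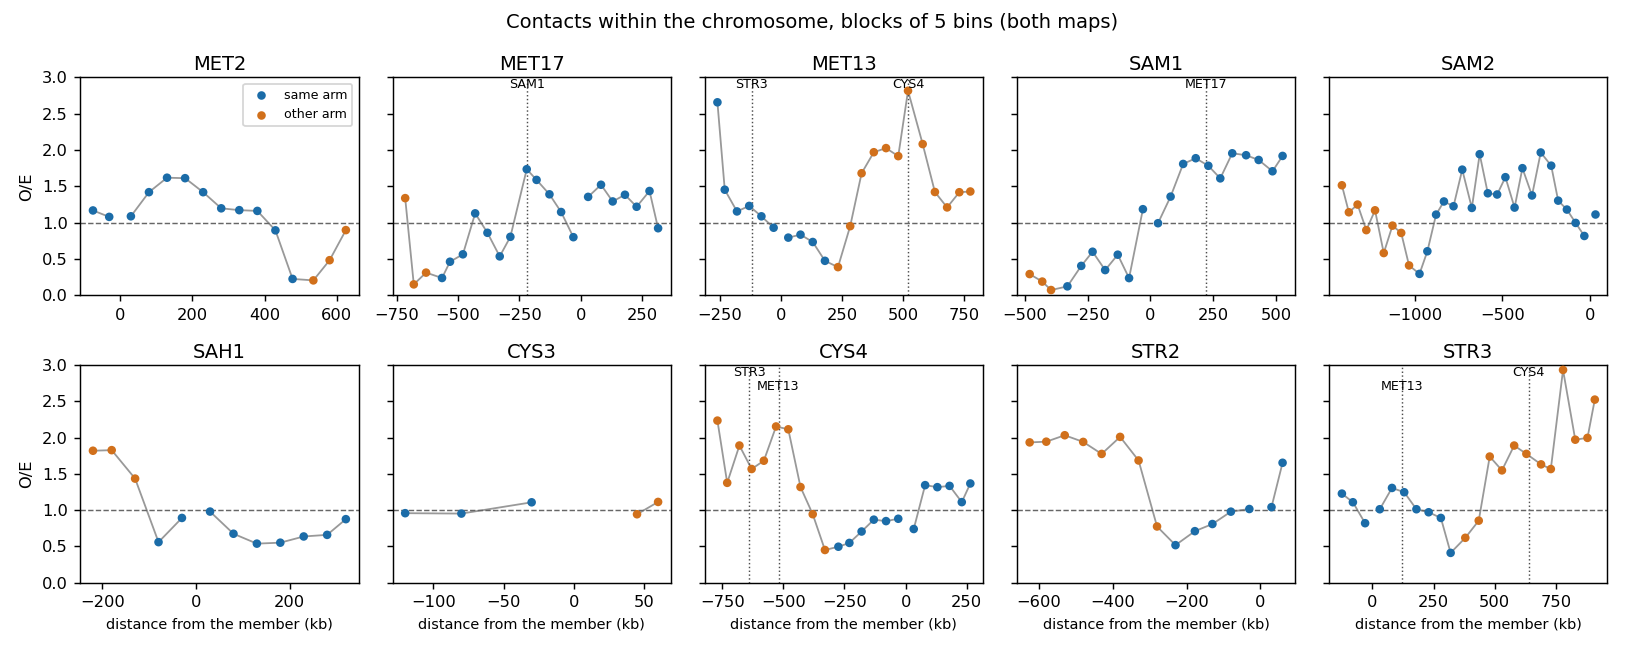
For each member the O/E within its chromosome, from the contacts of both maps summed over blocks of up to 5 bins, is drawn against the distance from the member in kb, with blue for the arm of the member and orange for the other arm. Dotted lines mark other members; the MET13 curve reaches 2.82 in the block of CYS4, and the SAM1 curve is low on the left and high on the right.

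Other arms were contacted at levels that split the members. Over all bins of the other arm STR3, STR2, MET13, SAH1 and CYS4 had O/E of 1.67, 1.63, 1.59, 1.46 and 1.45, each above the median of 1.05 over kept bins. SAM2 and CYS3 had 0.985 and 0.979. MET2 had 0.470 (5 and 14 contacts), MET17 0.384 (9 and 10) and SAM1 0.201 (4 and 9). The MET2 value differed between maps, at 0.248 and 0.693. MET17 and SAM1 lie beyond the ribosomal DNA and MET2 far out on its arm, but SAM2, the member farthest out, was not low. Both maps gave values on the same side of 1 for each member but SAM2.

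Nearby contacts, at 10 to 50 kb, were low at CYS4 and MET13. The CYS4 bin had O/E of 0.853 and 0.789 (the 4.35th percentile), below all 8 kept neighbours, which ran from 0.883 to 1.12. MET13 had 0.873 and 0.844 (the 8.33rd percentile), inside the range of its own neighbours. The bins of the other members lay between 0.918 for STR3 and 1.09 for CYS3. MET17 was lopsided. To its left, toward the centromere, it had 0.788 and 0.810, and to its right 1.38 and 1.32, the 98.2nd percentile of kept bins.

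SAM1 and MET17 lie beyond the ribosomal DNA (rDNA, the ribosomal RNA genes at chrXII:451786-489469), and their contacts differed by side. At 60 kb or more, SAM1 had 100 and 86 contacts with bins before the rDNA where 533 were expected over both maps (O/E 0.349, interval 0.301 to 0.403). With bins beyond it, SAM1 had 497 and 449 where 568 were expected (1.66, interval 1.56 to 1.77). MET17 had 0.588 before (69 and 56 contacts against 212) and 1.36 beyond (575 and 513 against 799). Both maps gave the same order for both genes. Reference distances were used across the rDNA, and how many repeats this strain has was not measured. By Poisson p, the highest distant bin of SAM1 on its chromosome lay beside the bin of MET17 (chrXII:720001-730000), with 15 and 22 contacts against 13.6 expected (O/E 2.12 and 3.39).

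Single partners on other chromosomes that passed the adjusted Poisson test were few, 5 for all members together, and 789 of the 1080 kept bins had none. CYS3 with the bin chrXII:90001-100000 had 47 and 37 contacts against 6.33 expected (O/E 14.6 and 11.9). These bins share 193 runs of 50 bases, in SSA1 beside CYS3 and SSA2 (paralogous heat shock proteins) and in a pair of tRNA genes, so reads of 1 locus could be placed at the other. MET2 with chrXV:970001-980000, which holds TYE7 (an activator of glycolytic genes), had 8 and 10 contacts against 1.63 (9.75 and 12.4). The bin before MET2 had as many contacts with the same partner, 18 against 1.55. A Ty element (a retrotransposon) lies in the partner bin of the reference and another 7.48 kb from the MET2 bin, and no run of 50 bases is shared between the MET2 bin and its partner. The Ty elements of this strain were not examined, and their part in these contacts was not tested.

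The remaining called partners were weaker. SAH1 with chrIX:250001-260000, which holds VHR1 (an activator of biotin genes), had 9 and 7 contacts against 3.61 (O/E 4.84 and 4.00, adjusted exact Poisson p = 0.00422). STR3 with chrXV:480001-490000, which holds OST3 and LPX1, had 10 and 6 against 3.86 (5.11 and 3.15, adjusted exact Poisson p = 0.00906). That partner bin adjoins the bin with the LacO array of this strain. SAH1 with chrXI:570001-580000, the bin of MET1, had 6 and 9 against 4.00 (2.90 and 4.66, adjusted exact Poisson p = 0.0387). Neither of the 2 SAH1 partners was called with the balance made from contacts between chromosomes alone (adjusted exact Poisson p = 0.117 and 0.127) or by the negative binomial test (0.0747 and 0.326), and STR3 was not called by the latter (0.126). In windows of 3 by 3 bins SAH1 with the VHR1 bin passed (O/E 1.77, adjusted exact Poisson p = 0.00149). SAH1 with the MET1 bin (1.59, adjusted exact Poisson p = 0.0538) and STR3 with its partner (1.38, adjusted exact Poisson p = 0.389) did not.

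The other members had no called partner on another chromosome. The highest bins by the Poisson test were chrXV:540001-550000 for MET17 (10 contacts against 3.54), chrIX:160001-170000 for MET13 (14 against 4.21), chrXV:760001-770000 for SAM1 (11 against 4.31), chrVII:310001-320000 for SAM2 (8 against 1.42), chrIV:130001-140000 for CYS4 (11 against 3.15) and chrVIII:290001-300000 for STR2 (12 against 3.76). Within their chromosomes the highest distant bins by the same test, over 50 kb away, of the remaining members were chrXIV:270001-280000 for MET2 (29 against 11.0), chrXII:790001-800000 for MET17 (91 against 54.9), chrIV:1240001-1250000 for SAM2 (16 against 6.15), chrV:80001-90000 for SAH1 (53 against 24.0), chrVII:850001-860000 for CYS4 (103 against 59.6), chrX:720001-730000 for STR2 (95 against 57.5) and chrVII:220001-230000 for STR3 (102 against 65.7). Of the distant bins tested, 10 of 82 passed as higher for MET17, 10 of 85 for SAM1, 8 of 89 for MET13 and 8 of 89 for STR3. For SAM2 6 of 126 passed, for CYS4 6 of 91, for STR2 6 of 56, for MET2 4 of 61 and for SAH1 4 of 44. CYS3 had none of 9 on its short chromosome. The median over the 1080 kept bins was 2 called distant bins, 244 bins had none and the most was 32. At any distance, 5.55% of all kept pairs within chromosomes passed as higher and 5.68% as lower. Lower than expected were 11 distant bins of SAM1, 6 of SAH1, 2 of MET13 and 1 each of CYS3 and CYS4.

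The rest of the sulfur pathway was contacted slightly above the level expected in single pairs of bins and near it in windows. With the bins of 9 genes of sulfate uptake and reduction, 6 genes of Met4 and its cofactors and 14 genes of methyl supply, transport and recycling, the members formed 221 pairs between chromosomes that passed the filter on bins. These had 712 contacts against 646 expected, a summed O/E of 1.10 (interval 1.02 to 1.19). The pairs reuse the same 10 member bins and the interval covers counting error only, so it is a description and not a test. Their mean O/E was 1.09 and 1.15, 1.12 ± 0.0373 (SD, n = 2), with a median of 1.02. In windows of 3 by 3 bins the mean was 1.01, with 73 windows above 1 in both maps and 77 below. Above 1 in both maps were 56 pairs, or 25.3%, against 20.5% of all, 67 were below in both and 29 had no contact. SAH1 with MET1 (a methyltransferase that makes the siroheme of sulfite reductase) was the 1 called pair, against 0.0589% of all pairs. By group the mean was 1.30 ± 0.0659 with Met4 and its cofactors (57 pairs, 189 contacts against 157), 1.07 with sulfate uptake and reduction (76 pairs) and 1.03 with methyl supply, transport and recycling (97 pairs). The median over the Met4 group was 1.31 and its summed O/E 1.20, with no called pair. In windows the mean of that group was 0.970, on the other side of 1, with 17 windows above 1 in both maps and 22 below.

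SAM1 was again low, at 40 contacts against 61.2 expected with the 21 other sulfur bins tested, and 13 of its 21 pairs were below 1 in both maps. CYS3 had 115 against 87.4 and MET13 106 against 83.5. In windows the CYS3 value turned, to a mean of 0.882 with 13 of 24 windows below 1 in both maps and 4 above, while SAM1 stayed low at 0.640 and MET13 was at 1.06. Below SAH1 with MET1, the highest pairs were SAM2 with MET6 (methionine synthase; 4 and 3 contacts against 1.95, adjusted exact Poisson p = 0.605), MET2 with SUL1 (a sulfate permease; 2 and 5 against 2.19, p = 0.726), CYS3 with CBF1 (3 and 2 against 1.56, p = 0.953) and CYS3 with MUP3 (a methionine permease; 3 and 4 against 2.29, p = 0.767). In windows of 3 by 3 bins 7 of the 221 pairs passed, or 3.17%, against 1.38% of all windows. SAM2 with MET6 (44 contacts against 24.5, adjusted exact Poisson p = 0.0260) and CYS3 with MUP3 (43 against 23.0, adjusted exact Poisson p = 0.0165) were among these. The largest in contacts was SAH1 with MET30 (a subunit of the ligase that holds Met4 inactive; 90 against 51.0, adjusted exact Poisson p = 0.000298), followed by SAH1 with MUP1 (a methionine permease; 68 against 38.3). The MET30 bin adjoins the VHR1 bin on chromosome IX. The window of SAH1 with MET30 therefore takes in the called pair of SAH1 with the VHR1 bin, 16 contacts against 3.61. These results share contacts and are not independent. The others were STR3 with SUL1 (49 against 27.4), MET13 with SHM2 (a serine hydroxymethyltransferase; 47 against 27.0) and SAM2 with SUL1 (41 against 23.0). The SUL1 bin lies within 30 kb of a chromosome end and 557 kb from its centromere. Its expectation is a mean over the ends of short and long arms alike. The part of this position in the SUL1 values was not tested. Within chromosomes, 1 of 19 pairs was higher and 1 lower, against 5.55% and 5.68% of all kept pairs. SAH1 with HOM3 (aspartate kinase), 20 kb apart, was higher at 316 and 240 contacts against 437, but not in its window (O/E 0.954). STR2 with ADO1 (adenosine kinase), 40 kb apart, was lower at 76 and 67 contacts against 182 (adjusted exact Poisson p = 0.0356). In windows 5 of the 19 passed as higher, against 25.9% of all windows.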

How the data were processed

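Hi-C libraries of 2 replicates grown without methionine were used, and the other 4 of the 6 samples were not analysed here. The authors processed the reads with HiC-Pro on the sacCer3 build and deposited a balanced signal for pairs of 10 kb bins, corrected iteratively (ICE) in each library separately. Read filters and iterations are not named in the sources used here. Balancing gives all bins the same total, so a bin with few cut sites is scaled up. The factors of the bins were recovered from the values, and multiplying a value by the factors of its 2 bins returned a whole number, to within 0.01, for 100% of values in both maps. Bin numbers and edges were used as deposited. Genes came from the R64 annotation, which has the same chromosome lengths as the bin table.

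Between chromosomes the expected signal was the mean over strata of centromere distance (edges at 0, 20, 50, 100, 200, 300 and 500 kb) and a class within 30 kb of an end. Within chromosomes it was the mean at the same distance over all chromosomes. Contacts of both maps were tested against the expected contacts with a one-sided Poisson test over all kept pairs, adjusted by Benjamini-Hochberg with a threshold of 0.05. Sums by partner chromosome were tested two-sided over all kept bins, a test added after the data were seen. Poisson and binomial intervals (95%) and p-values cover counting error only, and PCR copies are not independent molecules. Means ± SD are over the 2 maps. A percentile is a place among kept bins and not a test. Steps were checked on simulated maps with known raised pairs between chromosomes. These were Poisson counts drawn around the fitted expectation, so they cannot show how the tests behave where real counts spread more widely.

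Named were all members, the 5 highest pairs above 1 in both maps, pairs without contacts, each pair within a chromosome, the 5 highest pairs with other sulfur genes, the top bins of each member, and called pairs between chromosomes and among listed genes. Other called bins within chromosomes are counted. The members, lists and tests were chosen with earlier results of these data known. Python 3.11.15, numpy 2.4.6, pandas 2.3.3, scipy 1.17.1 and matplotlib 3.10.9 were used.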

Additional observations from a re-analysis of the deposited data

Results flagged for a closer look

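Contacts of the member bins with the mitochondrial genome lie outside the comparisons of the report and were above the 3 contacts that a count of 0 allows. Over both maps the counts were 6 for MET2, 19 for MET17, 24 for MET13, 11 for SAM1, 6 for SAM2, 9 for SAH1, 12 for CYS3, 13 for CYS4, 11 for STR2 and 15 for STR3, and the median over kept bins was 12. They come from 2 mitochondrial bins in each map, and mitochondrial DNA lies outside the nucleus.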

How the results depend on the processing

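Of the main results, the mean O/E of member pairs between chromosomes was 0.935 when the balance used only contacts between chromosomes, and 1.14 as summed contacts over summed expected contacts, against 1.03, so it lay on either side of 1. Contact with the other sulfur genes was 1.02 with that balance, 1.04 with the mean between chromosomes as expectation and 1.01 in windows of 3 by 3 bins, against 1.12. That balance gives all bins the same total between chromosomes by construction, so levels such as those of SAM1 and SAM2 cannot be read from it. With no filter on bins the median share of contacts between chromosomes was 39.1% against 38.5% and the median contact with centromere windows 0.230 against 0.296. The count of called member pairs between chromosomes was 1 in windows and 0 in every other setting run. With 1 map left out, the 6 main results ran from 0.975 to 1.10 for member pairs between chromosomes, 0 to 0 for called pairs, 1.71 to 2.28 for pairs within a chromosome, 38.3% to 38.9% for the share between chromosomes, 0.254 to 0.288 for centromere windows (kept bins change with the maps) and 1.06 to 1.15 for other sulfur genes. Placing genes by their start left every member in its bin. No value of a called pair reversed.

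Single calls were less stable. In windows SAH1 with MET1 and STR3 with the LPX1 bin lost their calls, and SAM2 with MET6 and CYS3 with MUP3 gained one. With 1 map alone, MET13 with CYS4, SAH1 with MET1, SAH1 with the VHR1 bin and STR3 with the LPX1 bin were no longer called, while CYS3 with the SSA2 bin and MET2 with the TYE7 bin were. CYS4 with STR3 had O/E of 3.83 without replicate 1 and was called (adjusted exact Poisson p = 0.0196), and had 0.776 without replicate 2. Of 200 values of single pairs and levels under the alternatives, 170 kept their side of the threshold or moved by less than the SD over maps. A pair called in neither setting counts among these whatever its O/E, so the count says little about uncalled pairs. CYS3 with STR3, for 1, had 2.14 in the main setting and 0.526 with the mean between chromosomes as expectation. The level of SAM1 ran from 0.763 to 0.843 and that of SAM2 from 1.11 to 1.27 over the alternatives other than that balance.

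No paired analysis was possible because there was 1 group. Depth limits what single pairs can show, since the median pair of bins between chromosomes had 1 contact in each map. A bin of 10 kb holds several genes, and copies of sequence that this strain has beyond the reference cannot be seen.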

Other observations

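How alike the 2 maps were differed by member. Over the 15 partner chromosomes Pearson's r between the maps was 0.936 for SAM1 and 0.182 for MET13, and over single partner bins on other chromosomes r ran from 0.0307 for MET13 to 0.214 for CYS3. In windows of 3 by 3 bins, which overlap and so share contacts, it ran from 0.232 for MET2 to 0.635 for SAM1. These are correlations across bins or chromosomes of the same libraries and carry no p. The SAM1 row thus had the most alike values in both maps by partner chromosome and by window, while the small excesses of MET13 by partner chromosome varied between maps by nearly as much as among chromosomes.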
